A study of Homo sapiens with 4 samples.

Results

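Clade A of the serpin family comprises secreted proteins, made mainly by the liver, that inhibit serine proteases or carry hormones, together with angiotensinogen (AGT), the precursor of the angiotensin peptides. Their transcripts were measured in Huh-7, a line grown from a human hepatocellular carcinoma, after treatment with transforming growth factor beta (TGF-beta) and without it. The genes taken were SERPINA1, SERPINA3, SERPINA4, SERPINA5, SERPINA6, SERPINA7, SERPINA10 and AGT, and every probe set that the platform annotation assigns to one of them was used. This gave 10 probe sets of 22215 and all 8 genes, of 12165 genes with a probe set of their own. SERPINA1 had 3 probe sets and each other gene had 1.

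The series holds 4 Affymetrix arrays of total RNA, 2 from Huh-7 cells exposed to TGF-beta and harvested at 48 h, and 2 from untreated Huh-7 cells. The labels give no harvest time for the untreated cells, so a difference in time in culture cannot be told apart from TGF-beta. Both groups were cultured in a standard medium with 10% fetal bovine serum, and the labels name no dose of TGF-beta. Huh-7 is 1 tumour line, so the arrays of a group do not stand for different donors. Nothing says that the 2 arrays of a group came from separate cultures, and p-values therefore measure the spread between these arrays, which may be technical. Median probe set intensity was 50.7 to 51.0 on the TGF-beta arrays and 50.1 to 50.3 on the untreated arrays.

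A serpin offers its target protease a flexible loop as bait; cleavage of that loop makes the serpin fold around the protease and trap it, so each molecule works once. The hormone carriers of the clade use the same fold to hold a ligand and do not inhibit proteases. Hepatocytes transcribe these genes under liver-enriched factors such as HNF4 and the C/EBP family, and several of them rise in the acute phase response, the reaction of the liver to inflammation. AGT is cleaved to release angiotensin I.

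Of the 8 genes, 6 lie in 1 cluster on chromosome 14, while AGT lies on chromosome 1 and SERPINA7 on X. Along the chromosome the clade A genes run SERPINA10, SERPINA6, SERPINA2 (a transcribed pseudogene), SERPINA1, SERPINA11, SERPINA9, SERPINA12, SERPINA4, SERPINA5, SERPINA3 and SERPINA13P. The RefSeq promoter windows of the 6 genes, each reaching from 250 bases before a gene's start to 50 after it, span 319.4 kb. RefSeq (GRCh38.p14) gave 10 windows for the 8 genes, with 2 starts each for SERPINA1 and SERPINA10. The windows below belong to the 3 genes with the smallest p-values in the comparison, SERPINA1, AGT and SERPINA6. All 3 genes are on the minus strand, the sequences read 5′ to 3′ in the direction of transcription, and capitals mark the SMAD-binding core CAGAC, on either strand, or the STAT3 letters TTCNNNGAA, which read the same on both. SMAD proteins carry the TGF-beta signal to DNA, and STAT3 carries that of interleukin-6 in the acute phase response.
SERPINA1, downstream start, the one used in hepatocytes (chr14:94388553-94388852): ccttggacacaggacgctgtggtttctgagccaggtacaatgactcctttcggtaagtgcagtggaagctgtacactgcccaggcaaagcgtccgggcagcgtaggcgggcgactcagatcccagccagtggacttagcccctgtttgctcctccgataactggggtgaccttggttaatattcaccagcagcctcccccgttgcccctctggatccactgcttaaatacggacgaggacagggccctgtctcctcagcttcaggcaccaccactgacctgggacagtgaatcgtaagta
SERPINA1, upstream start (chr14:94390586-94390885): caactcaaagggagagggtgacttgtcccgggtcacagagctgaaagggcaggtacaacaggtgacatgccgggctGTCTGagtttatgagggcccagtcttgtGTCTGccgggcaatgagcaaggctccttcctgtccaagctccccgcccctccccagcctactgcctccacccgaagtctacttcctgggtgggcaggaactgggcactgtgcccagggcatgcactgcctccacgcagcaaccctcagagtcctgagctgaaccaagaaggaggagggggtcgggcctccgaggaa
AGT (chr1:230714073-230714372): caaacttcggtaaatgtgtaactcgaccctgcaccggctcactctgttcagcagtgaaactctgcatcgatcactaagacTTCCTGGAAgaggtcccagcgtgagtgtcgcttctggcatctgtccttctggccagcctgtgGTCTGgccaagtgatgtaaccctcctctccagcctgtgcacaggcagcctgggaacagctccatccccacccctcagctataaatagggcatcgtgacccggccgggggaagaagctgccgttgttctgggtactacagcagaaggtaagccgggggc
SERPINA6 (chr14:94323287-94323586): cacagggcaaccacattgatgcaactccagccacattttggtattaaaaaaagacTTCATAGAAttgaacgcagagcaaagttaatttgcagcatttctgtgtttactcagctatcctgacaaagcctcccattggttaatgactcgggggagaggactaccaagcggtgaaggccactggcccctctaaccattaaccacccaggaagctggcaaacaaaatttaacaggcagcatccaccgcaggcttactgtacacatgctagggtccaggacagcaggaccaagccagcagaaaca
The SMAD core was present in 7 of the 10 windows and in 45.3% of the 35116 windows of all genes. It began 108 bases before the AGT start, occurred at 2 places in the upstream SERPINA1 window, and was absent from the downstream SERPINA1 window and from SERPINA6. The C/EBP letters TTGCNNAA, searched on both strands, were found in 3 windows, all of SERPINA10 or SERPINA7, against 10.5% of all windows. The STAT3 letters were found in 1 window each of AGT, SERPINA5 and SERPINA6, against 7.66% of all windows, and began 170 bases before the AGT start and 195 before that of SERPINA6. The downstream SERPINA1 window held none of the 3 motifs. Both SERPINA10 windows overlap and share their C/EBP match. These matches describe letters in the windows and were not measured as sites.

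The comparison asked which of these transcripts differed in level between TGF-beta and untreated cells. SERPINA1 and AGT had higher intensities on both TGF-beta arrays than on both untreated arrays, at 1.51-fold and 1.39-fold, and SERPINA6 had lower ones, at 0.805-fold. None of the 8 genes passed an adjusted p under 0.05 in limma's test over all genes. Over all genes measured, 1.22% passed (149 of 12165), 0.658% higher and 0.567% lower after TGF-beta. SERPINA5 was bright but its groups overlapped, and SERPINA3, SERPINA4, SERPINA7 and SERPINA10 stayed below the median intensity of every array.

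**Figure D1:**
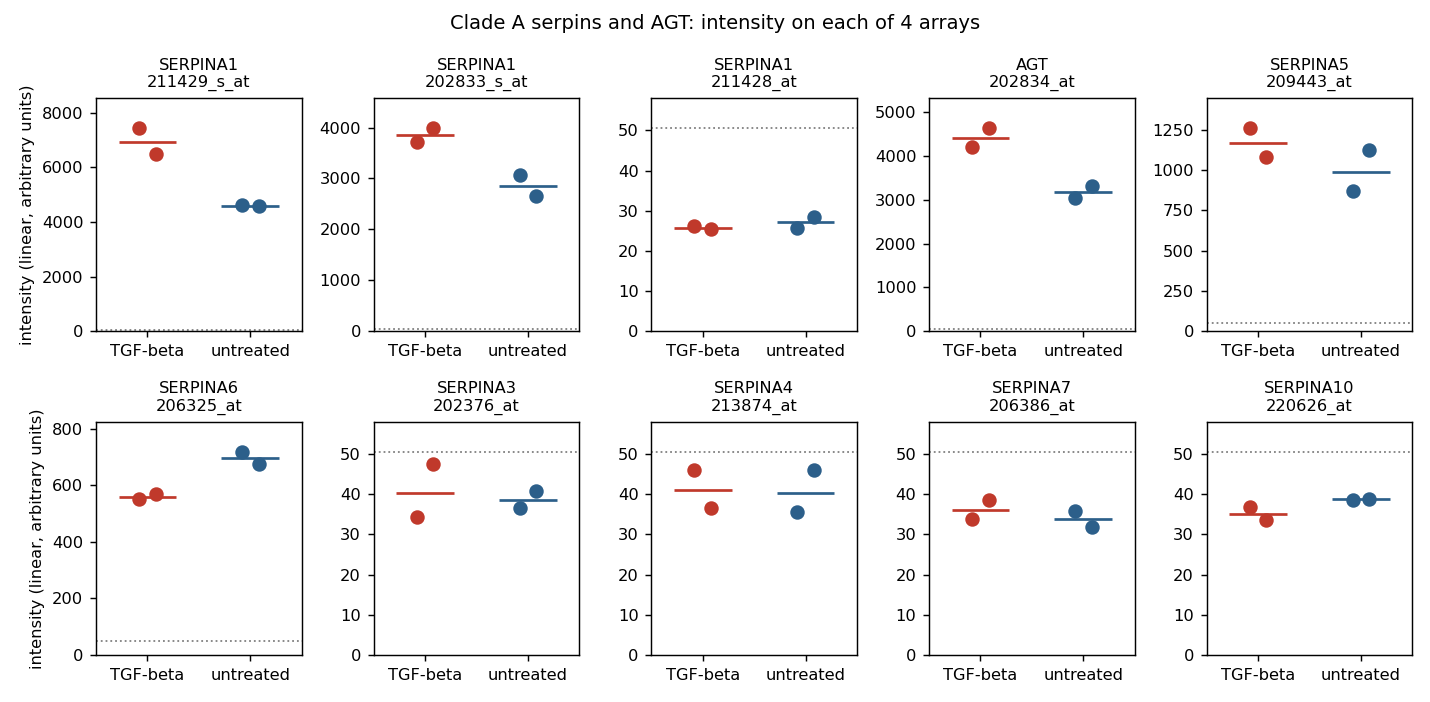
Intensity (linear, arbitrary units, axis from 0) of the 10 probe sets on each of the 4 arrays, TGF-beta in red and untreated in blue; points are arrays, bars are geometric means of 2 arrays, and the dotted line is the mean of the 4 arrays' median intensities. The TGF-beta points lie above the untreated points in the 2 bright SERPINA1 probe sets and in AGT and below them in SERPINA6, while 5 probe sets lie under the dotted line in both groups.

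SERPINA1 encodes alpha-1 antitrypsin, the main plasma inhibitor of neutrophil elastase. Its brightest probe set read 7431 and 6499 on the TGF-beta arrays, against 4628 and 4569 on the untreated arrays. The groups did not overlap, and the lower TGF-beta array stood clear of the nearly equal untreated arrays. The log2 fold change was 0.60 ± 0.11 (SE, n = 2 per group) with a 95% interval of 0.33 to 0.86, which is 1.26-fold to 1.82-fold. The limma adjusted p was 0.0555, short of the threshold, and ranked 228 of 12165 genes by p. A larger absolute change was seen in 2.92% of all genes, and in 143 of the 4024 genes with a mean log2 intensity of at least 8.

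The second brightest SERPINA1 probe set read 3722 and 3985 on the TGF-beta arrays and 3063 and 2654 on the untreated arrays. These groups did not overlap either, and here TGF-beta array 2 was the higher of the treated pair, where TGF-beta array 1 was higher in the first probe set. Its log2 fold change was 0.43 ± 0.12 (SE), with an adjusted p of 0.127 in limma's fit over all probe sets, where 0.855% were called, 0.410% higher and 0.446% lower. The third SERPINA1 probe set was dim, at 26.2 and 25.4 on the TGF-beta arrays and 25.8 and 28.5 on the untreated arrays. Its groups overlapped and its log2 fold change was -0.07 ± 0.11 (SE). Both bright probe sets are of a kind (_s_at) that can match more than 1 transcript. SERPINA2, the neighbouring pseudogene and a close relative, was dim, at 26.2 and 26.1 on the TGF-beta arrays and 31.4 and 27.9 on the untreated arrays. With both bright probe sets left out, only the dim one remained and the value for the gene was -0.07 (adjusted p = 0.821).

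AGT read 4214 and 4633 on the TGF-beta arrays, against 3051 and 3306 on the untreated arrays. Both treated arrays exceeded both untreated ones, and the gap between groups was wider than the gap within either. The log2 fold change was 0.48 ± 0.11 (SE, n = 2 per group), with a 95% interval of 0.21 to 0.74 and a limma adjusted p of 0.0850. A larger absolute change was seen in 6.15% of all genes, and in 324 of the 4024 bright genes.

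For SERPINA1 and AGT the call changed with how the variance was moderated, and also with a replicate block, described in the last section. When limma's prior variance was allowed to follow intensity, the fold changes were the same and the adjusted p became 0.000579 for SERPINA1 and 0.00478 for AGT, while the other 6 genes were not called. That setting called 616 of the 12165 genes. In genes with a mean log2 intensity of at least 8 the median absolute log2 gap was 0.0927 between the TGF-beta arrays and 0.119 between the untreated arrays. In the 8141 dimmer genes these gaps were 0.128 and 0.133. Whether these gaps account for the change in calls was not tested.

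**Figure D2:**
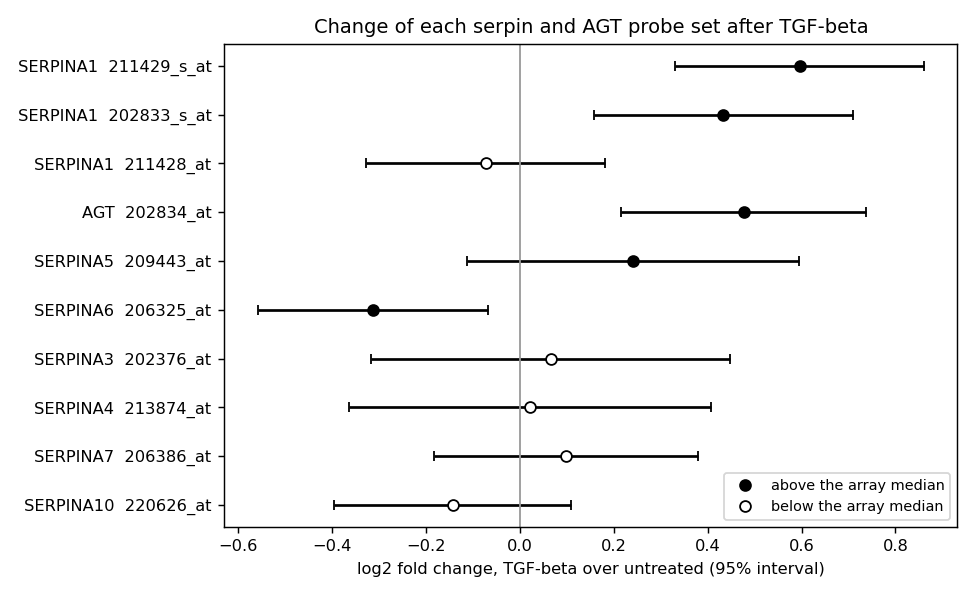
Log2 fold change, TGF-beta over untreated, of the 10 probe sets, with 95% intervals from limma's fit over all probe sets (not adjusted for the number tested). Filled points lie above the mean array median and open points below it. The intervals of both bright SERPINA1 probe sets and of AGT lie above 0, that of SERPINA6 lies below 0 and the other 6 include 0.

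The other 4 protease inhibitors of the clade did not pass the test either. SERPINA5, the protein C inhibitor, which blocks activated protein C and several other proteases, read 1258 and 1082 on the TGF-beta arrays and 868 and 1123 on the untreated arrays. Untreated array 2 lay between the treated arrays, and the log2 fold change was 0.24 ± 0.15 (SE; 95% interval -0.11 to 0.60; adjusted p = 0.462 in limma's test). That interval includes changes as large as the one estimated for AGT. Leaving out 1 array at a time moved the SERPINA5 value between 0.06 (without untreated array 1) and 0.43 (without untreated array 2).

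SERPINA3, alpha-1 antichymotrypsin, an acute phase inhibitor of cathepsin G and chymase, read 34.4 and 47.5 on the TGF-beta arrays and 36.6 and 40.7 on the untreated arrays. The treated arrays lay on either side of the untreated ones, and the log2 fold change of 0.07 ± 0.16 (SE) turned negative without TGF-beta array 2 (-0.17) or without untreated array 1 (-0.01). SERPINA4, kallistatin, an inhibitor of tissue kallikrein, read 46.1 and 36.5 on the TGF-beta arrays and 35.5 and 46.0 on the untreated arrays. Each group held 1 high and 1 low value, and the log2 fold change was 0.02 ± 0.17 (SE). It was -0.15 without TGF-beta array 1 and -0.16 without untreated array 1. SERPINA10, the protein Z-dependent inhibitor of coagulation factor Xa, read 36.9 and 33.5 on the TGF-beta arrays and 38.7 and 38.9 on the untreated arrays. Its groups did not overlap, with the treated arrays lower, but the log2 fold change of -0.14 ± 0.11 (SE) had an adjusted p of 0.556 in limma's test. It was -0.07 without TGF-beta array 2 and -0.21 without TGF-beta array 1. No detection call comes with the values, and whether the transcripts were present was not tested.

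Of the pair of hormone carriers, SERPINA6 was bright and SERPINA7 dim. SERPINA6, corticosteroid-binding globulin, which carries cortisol in plasma, read 553 and 569 on the TGF-beta arrays and 718 and 676 on the untreated arrays. Both treated arrays were below both untreated arrays, with narrow gaps within each group. The log2 fold change was -0.31 ± 0.11 (SE, n = 2 per group), with a 95% interval of -0.56 to -0.07 and a limma adjusted p of 0.185. Without 1 array the value ran from -0.36 to -0.27, where groups that do not overlap could not change sign. It was called in 0 of the 13 alternatives run, many of which cannot change the value of a gene with 1 probe set. A larger absolute change was seen in 16.1% of all genes. SERPINA7, thyroxine-binding globulin, read 34.0 and 38.5 on the TGF-beta arrays and 35.8 and 31.9 on the untreated arrays. Its groups overlapped and its log2 fold change was 0.10 ± 0.12 (SE), a value that was 0.007 without TGF-beta array 2, 0.013 without untreated array 2, 0.18 without untreated array 1 and 0.19 without TGF-beta array 1.

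SERPINA6 and SERPINA1, which stand next to each other in the cluster apart from the SERPINA2 pseudogene, thus had values of opposite sign. Bright and dim genes were interspersed along the cluster: SERPINA10, SERPINA4 and SERPINA3 lay below the array medians, and SERPINA6, SERPINA1 and SERPINA5 above them.

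**Figure D3:**
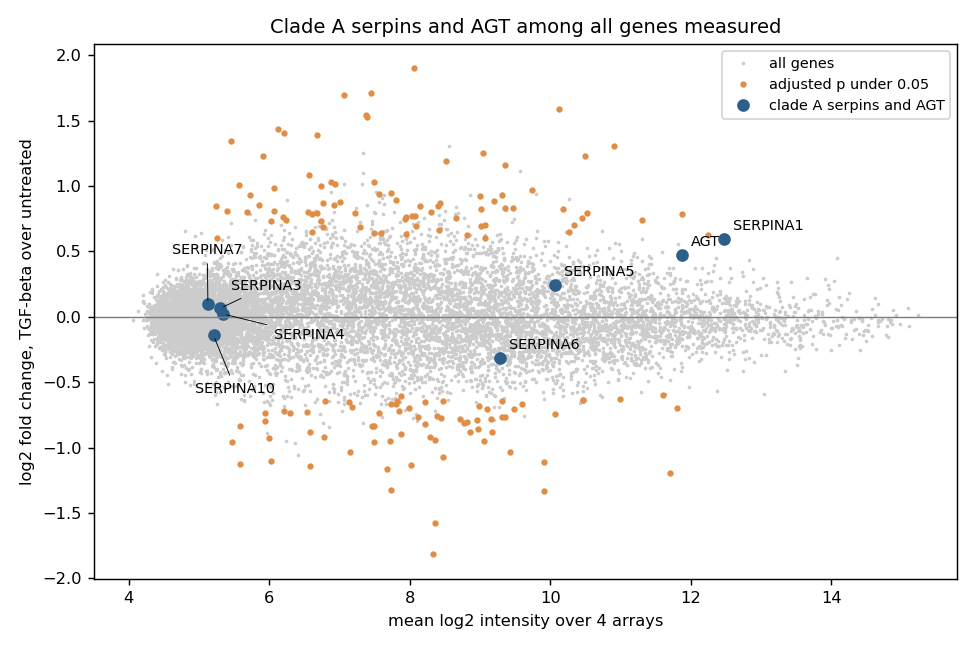
Log2 fold change, TGF-beta over untreated, against mean log2 intensity over the 4 arrays for 12165 genes (grey), with the 149 genes at an adjusted p under 0.05 in orange and the clade A serpins and AGT in blue. SERPINA1 and AGT sit among the bright genes at 0.60 and 0.48, where 143 and 324 of the 4024 bright genes changed by more, and the 4 dim genes sit near 0.

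Set against all genes, the share of serpins and AGT with separated groups was close to the background. The groups did not overlap in 4 of the 8 genes, 2 higher and 2 lower after TGF-beta, where 49.1% of all genes separated, 23.3% higher and 25.9% lower. With p left unadjusted and a limit of 0.05, there were 2 higher (SERPINA1 and AGT) and 1 lower (SERPINA6), where 18.0% of all genes passed, 9.35% higher and 8.60% lower. Positive values were found in 6 of the 8, where 5907 of all 12165 genes had one. The median log2 fold change was 0.08 for the 8 genes and -0.01 for all genes, and the median absolute value was 0.19 for the 8 genes and 0.13 for all genes. Among genes of mean log2 intensity of at least 8 the median absolute value was 0.16. The genes whose log2 profile over the 4 arrays, centred on its mean, lay nearest that of SERPINA1 were ADRM1 (a ubiquitin receptor of the proteasome), STAT4 (a transcription factor of cytokine signalling) and TMEM131L. Their Euclidean distances were 0.0347, 0.0449 and 0.0457 over 4 arrays, and their log2 fold changes were 0.59, 0.56 and 0.56. They were picked from all genes for this closeness, so like fold changes follow from the choice. None passed in limma's test (adjusted p = 0.0584, 0.0558 and 0.0603).

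Other serpins were taken as a list of 21 genes of clades B to I, of which 18 were measured. Of these, 1 fell, 0 rose and 17 did not pass, while without adjustment 6 stood higher and 1 lower at p under 0.05. The 1 that fell was SERPINI1 (neuroserpin, an inhibitor of tissue plasminogen activator), with a log2 fold change of -0.64 ± 0.11 (SE) and an adjusted p of 0.0433 in limma's test. Its call was lost without untreated array 1 (adjusted p = 0.0508), under quantile normalization (0.0527) and with genes below the lower quartile of brightness left out (0.0532). The 18 values had a median of 0.07 on the log2 scale. Within clade A, SERPINA2 was the 1 measured gene outside the 8, with a value of -0.18 ± 0.11 (SE).

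The proteases that these serpins inhibit, with their cofactors, gave 0 calls among 20 genes in limma's test and a median log2 fold change of -0.05; without adjustment, 2 stood higher and 2 lower at p under 0.05. PROC (protein C, the target of SERPINA5 once activated) had the smallest p, with a log2 fold change of 0.57 ± 0.13 (SE) and an adjusted p of 0.0813. It read 334 and 274 on the TGF-beta arrays and 215 and 194 on the untreated arrays, so its groups did not overlap. F10 (factor X) stood at 0.01 ± 0.17 (SE), a sign that turned under 3 of 13 alternatives, and PROZ (protein Z, the cofactor of SERPINA10) at -0.33 ± 0.16 (SE). Both had overlapping groups, and PROZ was -0.12 without untreated array 2, -0.19 without TGF-beta array 1 and -0.53 without untreated array 1.

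In the angiotensin system 13 of 16 listed genes were measured, and 1 rose. The gene that rose was ANPEP (aminopeptidase N, which trims angiotensin III), at 103 and 87.1 on the TGF-beta arrays against 53.9 and 42.5 on the untreated arrays. Its log2 fold change was 0.98 ± 0.15 (SE, adjusted p = 0.0371), and the call was lost under quantile normalization (adjusted p = 0.0527). ACE (angiotensin-converting enzyme) was dim, at 23.5 and 21.8 on the TGF-beta arrays and 24.0 and 24.5 on the untreated arrays. The list's median was 0.04, and without adjustment 3 stood higher and 0 lower at p under 0.05.

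Among genes of thyroid hormone and cortisol carriage and action, 1 of 16 measured fell and 15 did not pass. TTR (transthyretin, another carrier of thyroxine) fell, with a log2 fold change of -0.63 ± 0.11 (SE, adjusted p = 0.0470), at 1186 and 1088 on the TGF-beta arrays and 1797 and 1726 on the untreated arrays. This call was lost without untreated array 1 (adjusted p = 0.0528), under quantile normalization (0.0629) and with genes below the lower quartile of brightness left out (0.0570). NR3C1 (the glucocorticoid receptor) stood at 0.01 ± 0.12 (SE), and its second brightest probe set at -0.28. ALB (albumin, a carrier of many ligands) stood at 0.07 ± 0.10 (SE), at -0.34 in its second brightest probe set and at 0.43 in its dimmest, which was nearly as bright as the second. The brightest ALB probe set read 33581 to 35746, near the highest values of the arrays (37821 to 39036). Whether its signal was saturated was not tested. The list had a median of -0.003, and without adjustment 0 stood higher and 2 lower at p under 0.05.

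Among transcription factors and cytokine receptors that regulate hepatic serpin genes, 1 of 20 measured rose and 19 did not pass. CEBPD (C/EBP delta, a factor of the acute phase response) rose, with a log2 fold change of 0.83 ± 0.12 (SE, adjusted p = 0.0371). It read above both untreated arrays on both treated arrays, with group means of 9.43 and 8.60 on the log2 scale for TGF-beta and untreated cells. Its 2 dimmer probe sets gave 0.22 and 0.11, and with the mean of its probe sets the value was 0.39 and the call was lost (adjusted p = 0.0870). The call was also lost under quantile normalization (adjusted p = 0.0527). CEBPB stood at -0.02 ± 0.12 (SE), a sign that turned without TGF-beta array 2 (0.10), and STAT3, the transducer of interleukin-6, at 0.21 ± 0.10 (SE, adjusted p = 0.338). The list median was 0.08, and without adjustment 3 stood higher and 1 lower at p under 0.05. HNF4A was not analysed here.

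The route by which alpha-1 antitrypsin folds and leaves the endoplasmic reticulum gave 0 calls among 22 genes in limma's test and a median log2 fold change of -0.06; without adjustment, 2 stood higher and 4 lower at p under 0.05. The smallest p was that of EDEM3 (a mannosidase of glycoprotein degradation), at -0.41 ± 0.11 (SE, adjusted p = 0.117), and at -0.24 in its second brightest probe set. Receptors that bind serpins or their complexes with proteases gave 0 calls among 9 and a median log2 fold change of -0.21; without adjustment, 1 stood higher and 0 lower at p under 0.05. LRPAP1 (a chaperone of the LRP receptors) stood at 0.36 ± 0.13 (SE) and LRP1, which clears serpin-protease complexes, at -0.23 ± 0.15 (SE). LRPAP1 was 0.22 without untreated array 1 and 0.50 without untreated array 2. LRP1 was -0.04 without untreated array 1, -0.13 without TGF-beta array 2 and -0.41 without untreated array 2, and -0.03 in its second brightest probe set. No list was tested as a set. Every call named for a gene outside the 8, APOA1 and CD14 below included, was lost when TGF-beta array 1 or TGF-beta array 2 was left out, since 0 of the 12165 genes then passed in limma's fit (1326 and 1563 at an unadjusted p under 0.05).

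**Figure D4:**
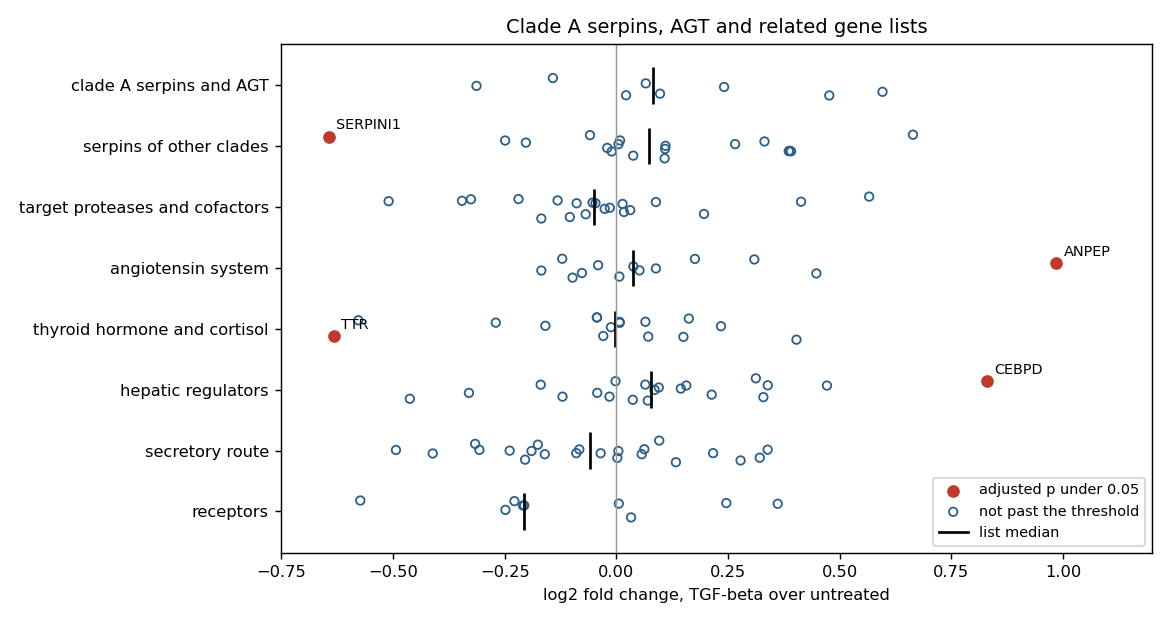
Log2 fold change, TGF-beta over untreated, of the clade A serpins and AGT and of the genes of 7 related lists; filled red points passed an adjusted p under 0.05, open points did not, and the black bar is each list's median (vertical position within a row has no meaning). The 4 genes that passed were SERPINI1, ANPEP, TTR and CEBPD, and no clade A serpin or AGT point is filled.

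Huh-7 markers were checked against the label. Of 16 measured hepatocyte markers, 13 were brighter than the median gene, APOA1 (apolipoprotein A-I) rose with a log2 fold change of 0.74 ± 0.11 (SE, adjusted p = 0.0378) and TTR fell. APOA1 was not called under quantile normalization (adjusted p = 0.0527). The hepatocyte markers dimmer than the median gene were TAT, CPS1 and HP. Summed hepatocyte marker intensity was 120992 to 122076 on the TGF-beta arrays and 115620 to 118419 on the untreated arrays. Much of each sum was ALB and AFP, and the median log2 fold change of the list was -0.003. Of 10 fibroblast and stellate cell markers 1 was brighter than the median gene, LUM, and 0 passed in limma's test (without adjustment, 0 stood higher and 2 lower at p under 0.05). LUM was among the brightest genes measured, at 6777 and 7292 on the TGF-beta arrays and 7184 and 6692 on the untreated arrays. COL1A1 had the smallest p there (-0.44 ± 0.11, SE), but its probe sets disagreed, the other 3 standing at -0.15, 0.16 and 0.12, and their mean was -0.08. The summed level of the list, most of it LUM, was 7116 to 7622 on the TGF-beta arrays and 7054 to 7584 on the untreated arrays. Of 8 endothelial markers 0 were brighter than the median gene and 0 passed in limma's test (without adjustment, 0 stood higher and 2 lower at p under 0.05), with PECAM1 at -0.34 ± 0.12 (SE), -0.21 without TGF-beta array 2, and at -0.09 and -0.43 in its dimmer probe sets. Their summed level was 238 to 245 on the TGF-beta arrays and 252 to 263 on the untreated arrays. Of 8 leukocyte markers 1 was brighter than the median gene, CD14, which hepatocytes also make. CD14 rose, at 146 and 157 on the TGF-beta arrays against 75.6 and 75.4 on the untreated arrays (adjusted p = 0.0167), and the summed level was 348 to 371 on the TGF-beta arrays and 279 to 285 on the untreated arrays. PTPRC, the common leukocyte antigen, was dim, at 30.2 and 30.0 on the TGF-beta arrays and 31.7 and 28.3 on the untreated arrays. The part of other cell types in the serpin values was not tested.

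**Figure D5:**
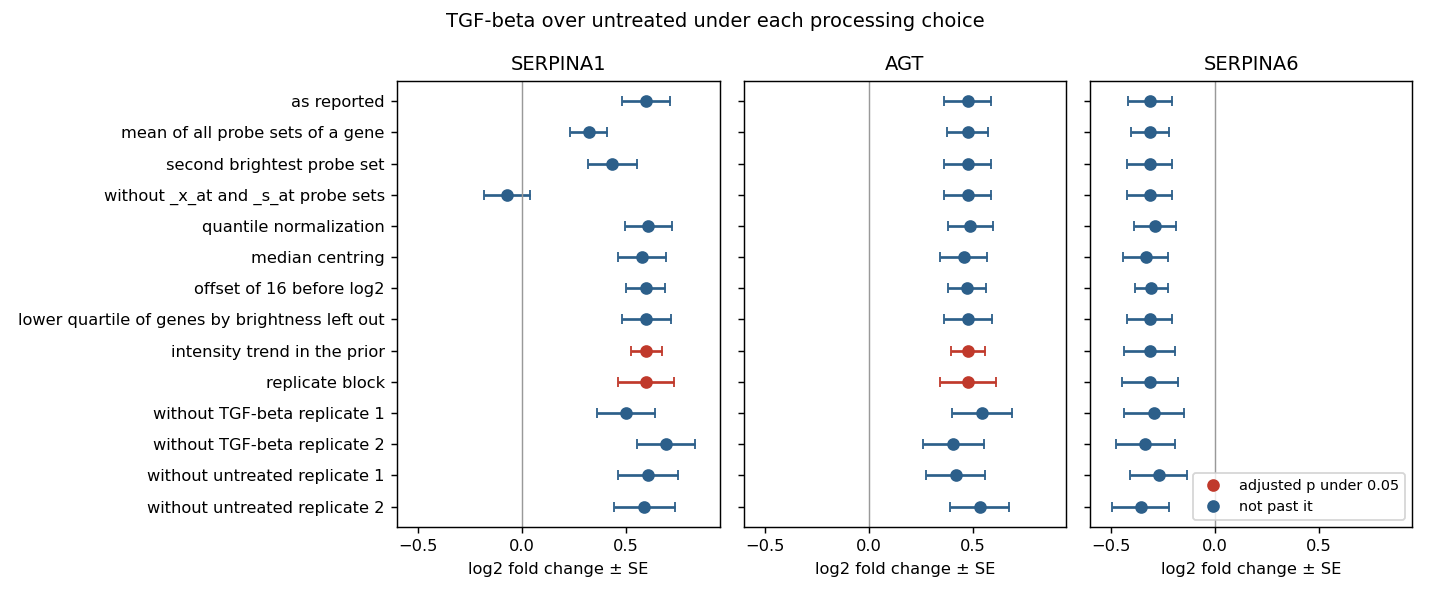
Log2 fold change ± SE, TGF-beta over untreated, of SERPINA1, AGT and SERPINA6 as reported and under 13 alternatives, red where the adjusted p was under 0.05. SERPINA1 and AGT are red with an intensity trend in the prior and with a replicate block, SERPINA1 lies at -0.07 when its bright probe sets are left out, and SERPINA6 is blue throughout.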

How the data were processed

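RNA of Huh-7 cells was measured on 4 Affymetrix arrays, 2 per group as the sample titles state. The deposited values are linear intensities, 1 per probe set and array, with affy named in the submitters' processing notes; how background, normalization and probe summary were handled is not stated there. Quartiles were nearly equal between arrays, so the deposited intensities were used without further scaling and converted to log2 with no offset. Probe sets were named from the platform annotation, which can be old, with symbols updated by Entrez number (RefSeq, GRCh38.p14). Of 22215 probe sets, 19724 named 1 gene, 568 several and 1923 none, and each gene took its brightest probe set.

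Groups were compared with limma 3.58.1 (R 4.3.3; lmFit, eBayes) over 12165 genes and again over all probe sets, with Benjamini-Hochberg adjustment and calls at an adjusted p under 0.05. There were 2 residual and 7.41 total degrees of freedom per gene; the number of arrays limits the precision. Intervals of 95% come from the moderated variance. The procedure was tested on simulated data. The 8 genes, the 12 related lists and the rule for named genes were chosen with earlier results of these data known. The rule named all 8 genes, up to 4 called genes of each list or its smallest p, genes listed by name and the 3 profiles nearest SERPINA1. LUM and PTPRC were named after their values were seen. Some listed genes are not reported here. Plots used matplotlib 3.10.9.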

Additional observations from a re-analysis of the deposited data

How the results depend on the processing

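No clade A serpin was called as reported, and the count of calls among the 8 genes became 2 (SERPINA1 at 0.60 and AGT at 0.48 on the log2 scale, values unchanged) with an intensity trend in the prior and 2, the same genes, with the replicate number as a block (adjusted p = 0.000991 and 0.0108). The numbers do not show pairing: deviations of same-numbered arrays correlated at 0.00966 over genes, so the block rests on a shared number only. Leaving out each array in turn gave 0 calls among the 8 in every case. Over all genes the 149 calls became 63 under quantile normalization, 89 with genes below the lower quartile of brightness left out, 616 with the intensity trend, 1229 with the replicate block and 0 to 523 without 1 array. Over all probe sets the 190 calls became 96, 96, 708, 977 and 0 to 680 under the same settings, and 91 with an offset of 16 before log2. The cause of these shifts was not tested. SERPINA1 turned to -0.073 without _x_at and _s_at probe sets, which leaves it the dim probe set; the mean of its 3 probe sets gave 0.32. Without 1 array SERPINA3 ranged from -0.17 to 0.30 and SERPINA4 from -0.16 to 0.21, in both fits. Signs also turned for NR3C1 (-0.049 with the mean of its probe sets, -0.28 with the second brightest, -0.012 under median centring, and -0.12 to 0.13 without 1 array), F10 (-0.0057 under quantile normalization, -0.0060 under median centring, -0.25 to 0.28 without 1 array), CEBPB (-0.13 to 0.10 without 1 array) and ALB (-0.34 with the second brightest probe set and without _x_at and _s_at probe sets). SERPINA5, SERPINA6, SERPINA7, SERPINA10 and AGT kept their sign in all 13 alternatives, but many of these could not turn it. Each has 1 probe set, so the choice or mean of probe sets, the brightness filter, the intensity trend and the block left the value unchanged. The groups of SERPINA6, SERPINA10 and AGT do not overlap, so leaving out 1 array could not turn their sign. Without 1 array SERPINA5 ranged from 0.06 to 0.43, SERPINA7 from 0.007 to 0.19 and SERPINA10 from -0.21 to -0.07. No background or detection value comes with the intensities, so how far signal stood above background was not tested.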
